A study of Mus musculus with 18 samples.

Results

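RNA of the MHC class II genes was examined in sorted cells of the mouse small intestine beside RNA of leukocytes, the cells that carry most class II protein in the gut. The 10 genes, of 23238 gene symbols in the count tables, were chosen by symbol. Of these, 6 belong to class II antigen presentation (H2-Aa, H2-Ab1, H2-Eb1, H2-DMa, Cd74 and Ciita) and 4 mark leukocytes (Ptprc, Cd3e, Cd79a and Itgax). The comparison asked whether class II RNA went with Ptprc and the other leukocyte genes across libraries, in stromal cells and in lymphatic endothelial cells.

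The 18 libraries came from adult C57BL/6J mice. By their labels, WT animals carried PDGFRb+-CreERT2-Tomato+ and LATS1/2 KO animals carried in addition Lats1f/f and Lats2 f/f, so that Cre and the Tomato reporter were shared by all groups. The study's general methods instead define WT littermates as floxed and free of Cre. The groups were WT intestinal stromal cells (IntSCs, n = 6), KO IntSCs (n = 5), WT lacteal lymphatic endothelial cells (LECs, n = 4) and KO LECs (n = 3). CreERT2 was expressed from the Pdgfrb promoter and its activity was induced by tamoxifen. This targets stromal cells and not the LECs, so the KO LECs were cells of a mouse with altered stroma. Peyer's patches had been removed, and blood and epithelial cells were depleted with beads against CD45 and CD326 before the sort, with CD31 beads added for IntSCs. CD45 is the product of Ptprc, so the depletion acted on one of the genes described here. The study lists a CD45 antibody for flow cytometry as well, so the sort may have acted on Ptprc too.

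Total counts ranged from 5361250 to 10549233 per library. A count of 0 allowed up to 3 reads, which was 0.357 to 0.621 CPM in IntSC libraries and 0.281 to 0.427 CPM in LEC libraries (CPM, counts scaled to library size). These floors cover counting error only. Lats1 and Lats2, read at the 3′ end of their transcripts, did not check the labels: the group means of Lats1 in IntSCs were 17.3 CPM in WT and 15.9 CPM in KO, and those of Lats2 were 72.0 and 113 CPM. LEC markers checked the sorts, with 8 of 9 higher in LECs than in IntSCs in WT and a summed level of 8911 to 12930 CPM in WT LECs against 237 to 414 CPM in WT IntSCs. Stromal markers summed to 659 to 716 CPM in 3 WT LEC libraries but to 2189 CPM in WT LEC 1, and to 340.2 to 605 CPM in KO LECs. Epithelial markers summed to 20.4 to 42.3 CPM in 5 WT IntSC libraries and to 151 CPM in WT IntSC 6.

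Class II molecules are pairs of an alpha and a beta chain that display peptides from endosomes to CD4+ T cells. H2-Aa and H2-Ab1 encode the chains of the I-A molecule, and H2-Eb1 encodes the beta chain of I-E. The invariant chain, encoded by Cd74, guides the newly made chains to the endosome, where H2-DM, of which H2-DMa encodes a chain, exchanges the invariant chain fragment for a peptide. Dendritic cells, macrophages and B cells express these genes constitutively, and many other cells, among them intestinal epithelial cells and LECs, express them after interferon-γ through the transactivator CIITA. C57BL/6 mice carry a defective I-E alpha gene and display no I-E although H2-Eb1 is transcribed. In these libraries H2-Ea-ps, the I-E alpha pseudogene, had no read in any of the 18.

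CIITA is recruited by factors that sit on a shared promoter module, an X1 box bound by the RFX complex and, nearer to the gene, a Y box (an inverted CCAAT letter group) bound by NF-Y. The bases from 120 to 31 before the start site are shown for the 2 chain genes with a RefSeq promoter entry and for H2-DMb1, which is described with them below. Sequences are from RefSeq on GRCm38.p6, in lower case with every match to the searched letters in capitals. H2-Aa is at chr17:34287854-34287943 on the minus strand, H2-Eb1 at chr17:34305747-34305836 and H2-DMb1 at chr17:34153071-34153160, both on the plus strand.
H2-Aa: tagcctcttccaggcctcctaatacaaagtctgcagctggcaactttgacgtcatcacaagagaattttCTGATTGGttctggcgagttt
H2-Eb1: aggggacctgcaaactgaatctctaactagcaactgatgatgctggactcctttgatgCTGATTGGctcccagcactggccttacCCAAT
H2-DMb1: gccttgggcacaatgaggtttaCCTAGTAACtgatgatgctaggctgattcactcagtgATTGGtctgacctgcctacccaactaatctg

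The searched letters were CTGATTGG for the Y box, ATTGG for the inverted CCAAT, which lies within those of the Y box, and CCNAGNNAC for the X1 box, on both strands of the 250 bases before the start. Of all 32851 promoters, 3.83% held the Y box letters, 33.8% ATTGG and 14.5% the X1 letters. Of the 10 genes, 7 had an entry, and the Y box letters stood in 2 of the 7, H2-Aa (from 51 bases before the start) and H2-Eb1 (from 62 bases before it). H2-Eb1 had ATTGG also on the other strand. H2-Aa held the X1 letters 180 bases before the start, outside the stretch shown, and H2-Eb1 did not hold them, whereas in H2-DMb1 they began 98 bases and ATTGG 61 bases before the start. None of Ptprc, Cd3e, Cd79a and Itgax had the Y box letters. H2-Ab1, Cd74 and Ciita had no entry. Such matches describe letters and are not evidence of binding or of the place of a box. The search took exact letters only, so a box that departs from them in any base was missed. Absence of the letters, as for X1 in H2-Eb1, does not show that the box is absent.

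The chain genes were higher in LECs than in IntSCs, in WT by 4.72 to 5.04 on the log2 scale, while Ptprc, Cd3e, Cd79a and Itgax had no more than 2 reads in any LEC library. H2-Aa, the alpha chain of I-A, was at 318, 134, 281 and 357 CPM in WT LEC libraries 1 to 4. In the 6 WT IntSC libraries it was at 0.167 CPM at the lowest, 9.72 at the median and 15.8 at the highest. The lowest LEC library thus lay above the highest IntSC library, and the log2 fold change was 5.04 ± 0.73 (SE, adjusted p = 1.59e-04 by edgeR). H2-Ab1, the beta chain of I-A, was at 351, 225, 301 and 541 CPM in WT LECs. In WT IntSCs its lowest, median and highest values were 7.14, 11.8 and 26.3 CPM. Its groups did not overlap either, with a log2 fold change of 4.72 ± 0.37 (SE, adjusted p = 2.39e-07 by edgeR).

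H2-Eb1, the I-E beta chain, was at 442, 271, 235 and 782 CPM in WT LECs and between 11.1 and 16.7 CPM in WT IntSCs, with a median of 13.7. This was the member that varied least among WT IntSC libraries relative to its mean (13.8 ± 2.68 CPM, SD, n = 6), and its log2 fold change was 4.96 ± 0.34 (SE, adjusted p = 6.77e-08 by edgeR). Cd74, the invariant chain, was at 77.6, 45.0, 72.5 and 145 CPM in WT LECs. It was at 0 to 5.08 CPM in WT IntSCs with a median of 1.72, and 2 of those 6 libraries had no read. Its log2 fold change was 5.30 ± 0.99 (SE, adjusted p = 0.00141 by edgeR).

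In WT, 4 of the 5 members tested were higher in LECs and none was lower, against 10.3% of the 12203 genes tested that were higher. The same 4 were those whose LEC and IntSC libraries did not overlap, and 9.76% of all genes had every LEC library above every IntSC library. The call held for each of these 4 genes in all 18 alternatives, among them each library left out (4.96, 4.72, 4.95 and 5.34 for H2-Aa, H2-Ab1, H2-Eb1 and Cd74 without WT LEC 1). The remaining 5 members were below the filter on low counts, and H2-DMa did not pass the test.

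**Figure D1:**
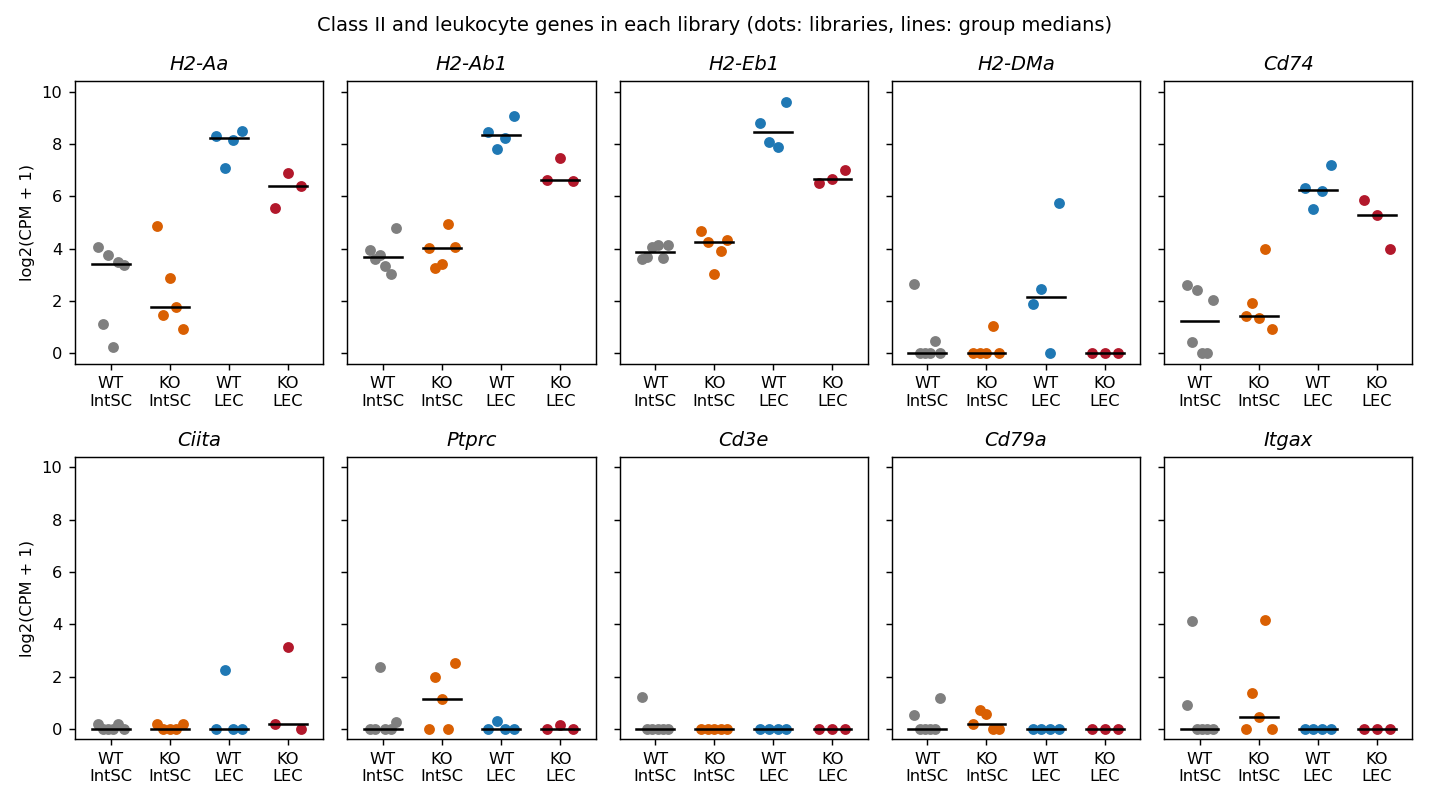
Level of each of the 10 genes in each library, on a log2(CPM + 1) axis, with 1 dot per library and a line at the group median. H2-Aa, H2-Ab1, H2-Eb1 and Cd74 stood higher in both LEC groups than in the IntSC groups, whereas Ptprc, Cd3e, Cd79a and Itgax lay at or next to 0 in all 7 LEC libraries.

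H2-DMa and Ciita were detected in few libraries. H2-DMa, the peptide editor chain, had 28, 36, 0 and 529 reads in WT LEC libraries 1 to 4, the last at 52.6 CPM, and no read in the 3 KO LEC libraries. In IntSCs it had 35 reads in WT IntSC 1, 3 in WT IntSC 5, 7 in KO IntSC 4 and none in the other 8. WT LEC 4 therefore carried most of the H2-DMa reads of the whole series. Its difference between WT LECs and WT IntSCs did not pass the test (edgeR adjusted p = 0.162). Ciita, the transactivator, had 31 reads in WT LEC 2 (3.81 CPM), 71 reads in KO LEC 2 (7.76 CPM) and 1 read in KO LEC 1, and no read in the other 4 LEC libraries. In IntSCs it had 1 read in each of 4 libraries and none in 7. The chain genes were thus expressed in LEC libraries in which no Ciita read was counted, and WT LEC 4, which held the highest H2-Aa, H2-Ab1, H2-Eb1 and Cd74, had none. Single libraries also lacked other genes that their group expressed: Rfxap, a subunit of the RFX complex, had 178, 309 and 393 reads in 3 WT LEC libraries and 2 reads in WT LEC 3.

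Ptprc, Cd3e, Cd79a and Itgax were at or next to 0 in the libraries with the highest class II, although other leukocyte genes were not, as given below for the marker lists. Ptprc, which encodes the pan-leukocyte phosphatase CD45, had no read in WT LEC 1, 3 and 4, 2 reads in WT LEC 2, 1 read in KO LEC 2 and none in KO LEC 1 and 3. Cd3e (T cell receptor complex), Cd79a (B cell receptor complex) and Itgax (CD11c, on dendritic cells and some macrophages) had no read in any of the 7 LEC libraries. In IntSCs Ptprc had 31 reads in WT IntSC 3 (4.18 CPM) and 1 in WT IntSC 6. In KO IntSCs 1 to 5 it had 0, 22, 10, 0 and 37 reads, up to 4.77 CPM. The library with the highest Ptprc of all 18, KO IntSC 5, had a summed class II level of 36.9 CPM, below the 684 CPM of the lowest WT LEC library.

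Itgax had 97 reads in WT IntSC 2 (16.5 CPM), 112 in KO IntSC 4 (17.1 CPM), 12 in KO IntSC 2, 6 in WT IntSC 1, 3 in KO IntSC 3 and none in the other 6 IntSC libraries. WT IntSC 2, with high Itgax, had H2-Aa at 1.19 CPM and Cd74 at 0.339 CPM, whereas KO IntSC 4 had the highest Cd74 of the IntSCs, at 14.9 CPM, and 101 reads of H2-Oa, a class II gene of B cells and dendritic cells that had no read in the other 10 IntSC libraries. Cd79a had at most 6 reads, in WT IntSC 6, and Cd3e had 9 reads in WT IntSC 1 and none elsewhere. None of the 4 leukocyte genes passed the filter for a test in WT, in IntSCs alone or in LECs alone. In KO, Ptprc was tested between the cell types and did not pass (edgeR adjusted p = 0.133), with the levels on the IntSC side.

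Across the 11 IntSC libraries, none of the 24 pairs of a class II and a leukocyte gene was correlated after adjustment. The 6 pairs with Cd3e could not pass, since reads in 1 library allow no exact permutation p below 0.167. Values were log2(CPM + 1) centred on the genotype means and tested by exact two-sided permutation within genotype. With Ptprc, r was -0.15 for H2-Aa, -0.23 for H2-Ab1, 0.13 for H2-Eb1 and -0.02 for Cd74, and rho was -0.15, -0.02, 0.18 and 0.07 (n = 11, exact permutation adjusted p from 0.800 to 0.950 for r and from 0.907 to 1 for rho). Without the libraries farthest from the median of Ptprc, WT IntSC 3 and KO IntSC 5, r became -0.30, -0.50, -0.17 and -0.21. The 24 adjusted p for r were 0.800 or more and those for rho 0.795 or more, with no raw p under 0.05 for r. The highest r, 0.91 between H2-DMa and Cd3e (rho 0.63, n = 11, exact permutation p = 0.167, adjusted p = 0.800 for r and 0.795 for rho), rested on WT IntSC 1, the sole library with Cd3e reads, and without it no value can be computed. Among the 6 WT IntSCs alone 1 pair, H2-Ab1 with Cd79a, had an unadjusted exact permutation p under 0.05 for r (0.0333, r = 0.91, rho = 0.85, n = 6), which rested on reads in WT IntSC 1 and 6, and the adjusted p of the 24 pairs were 0.800 or more for r and 0.889 or more for rho. Each leukocyte gene had reads in at most 2 of these libraries, which allows no exact permutation p below 0.0333. No single pair could therefore pass the adjustment, and the adjusted values do not decide the question. In LECs 18 of the 24 pairs had no value, because 3 leukocyte genes were at 0 throughout, and the other 6 rested on 3 reads of Ptprc. With these reads in 1 library of each genotype, no exact permutation p could be below 0.0833, so none could pass. Ciita with Ptprc was at that value (r = 0.89, rho = 0.91, n = 7).

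Lists of leukocyte markers were examined next, 69 genes together with the 4 members. Their summed level was 146 to 243 CPM in WT LECs, 78.7 to 150 CPM in KO LECs, 100.3 to 241 CPM in WT IntSCs and 108 to 188 CPM in KO IntSCs. WT LECs and WT IntSCs thus had overlapping summed leukocyte levels, while the summed class II members averaged 38.6 CPM (SD 13.7, n = 6) over WT IntSCs but 1161 CPM (SD 522, n = 4) over WT LECs. Of the pan-leukocyte list 2 of 12 genes passed the filter in that comparison and neither was called. That list summed to 4.57 to 36.2 CPM in WT LECs and 8.02 to 20.01 CPM in WT IntSCs. Its 3 genes with the highest means in WT LECs were Cd52 and Rac2, on average at 5.97 and 5.23 CPM there and 2.25 and 0.978 CPM in WT IntSCs, and Laptm5, at 3.17 and 6.67 CPM. Cd52 is a leukocyte surface protein, Rac2 a GTPase of blood cells and Laptm5 a lysosomal membrane protein of leukocytes.

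Of the macrophage and dendritic cell list, 9 of 18 genes were tested, none was higher in WT LECs and 1 was lower, Cd68, which encodes a lysosomal protein of macrophages. Cd68 averaged 22.4 CPM in WT IntSCs and 1.28 CPM in WT LECs (edgeR adjusted p = 0.0171, with the replicate block 0.0669). It passed the filter through WT IntSCs alone, and 1503 of all 12203 genes were called lower in that comparison. Other genes of this list had higher means in WT LECs, and the list sum was 49.1 to 111 CPM in WT LECs and 50.2 to 87.1 CPM in WT IntSCs. Zbtb46, a transcription factor of dendritic cells that endothelial cells also express, averaged 19.5 CPM in WT LECs and 4.94 CPM in WT IntSCs (edgeR adjusted p = 0.112, DESeq2 0.0229). The complement genes of macrophages C1qb and C1qc averaged 11.6 and 12.1 CPM in WT LECs and 0.539 and 2.37 CPM in WT IntSCs (edgeR adjusted p = 0.0774 and 0.338), and C1qb passed with DESeq2 (0.0237) and without WT LEC 2 (0.0358). Clec9a, a receptor of cross-presenting dendritic cells, was below the filter in this comparison, with 0, 55, 8 and 323 reads in WT LECs 1 to 4. At 32.1 CPM in WT LEC 4, the library with the highest class II sum and most of the H2-DMa reads, it was higher than in any other library, while Itgax was at 0 there. Fcgr1, an Fc receptor of macrophages, averaged 3.65 CPM in WT LECs and had no read in the other 3 groups. Their part in the class II level was not tested.

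Of the T cell list 3 of 13 genes were tested, and Cd2, an adhesion receptor of T and NK cells, was higher in WT LECs (5.41 to 44.9 CPM against at most 1.79 CPM, edgeR adjusted p = 0.0147), a call lost without WT LEC 4 (0.0774) and with the replicate block (0.102). Cd247, the ζ chain of the T cell receptor complex, was lower (0 CPM in all 4 WT LECs, edgeR adjusted p = 0.0164, with the replicate block 0.134). Cd247 passed the filter through WT IntSCs alone and Cd2 through WT LECs alone, so the direction of both was fixed by the filter. The T cell list summed to 39.8, 18.2, 22.1 and 90.3 CPM in WT LECs 1 to 4 and to 2.99 to 36.5 CPM in WT IntSCs, so that WT LEC 4, with the highest class II sum, also had the highest T cell sum. That sum lay mostly in Cd2 (44.9 CPM) and Lck (45.0 CPM, a kinase of T cells), with Cd3e at 0, and its part in the class II level was not tested. Of the B and plasma cell list 2 of 10 genes were tested and none passed. Its 3 genes with the highest means in WT LECs were Jchain, Mzb1 (a chaperone of plasma cells) and Bank1 (a B cell adaptor), at 24.9, 5.97 and 3.88 CPM there. Of the granulocyte, mast cell and NK cell list none of 12 was tested. In KO, edgeR called 4 leukocyte list genes lower in LECs than in IntSCs and none higher: Cd68, Csf1r (the receptor of the macrophage growth factor), Cd4 and Jchain (edgeR adjusted p = 5.00e-04, 0.0108, 0.0339 and 0.00168). Tested were 3 pan-leukocyte, 2 T cell, 2 B and plasma cell and 8 macrophage and dendritic cell list genes. Of all 12758 genes tested there, 2140 were called lower. Cd68, Csf1r and Cd4 had 2, 1 and 0 reads in total in KO LECs. These 3 passed the filter through KO IntSCs alone and could only come out lower. Csf1r and Cd4 lost their calls with the replicate block (0.184 and 0.210), and Cd4 was also not called without any 1 of the 3 KO LEC libraries (0.0783 to 0.0785). DESeq2 called further leukocyte genes in both directions, among them Lck higher in LECs (adjusted p = 0.0193) and Itgax lower (0.0477). Lck was below the filter of edgeR. The T cell list summed to 46.8 to 62.8 CPM in KO LECs and to 1.22 to 15.1 CPM in KO IntSCs, without overlap. Its part in the class II level was not tested in KO either.

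**Figure D2:**
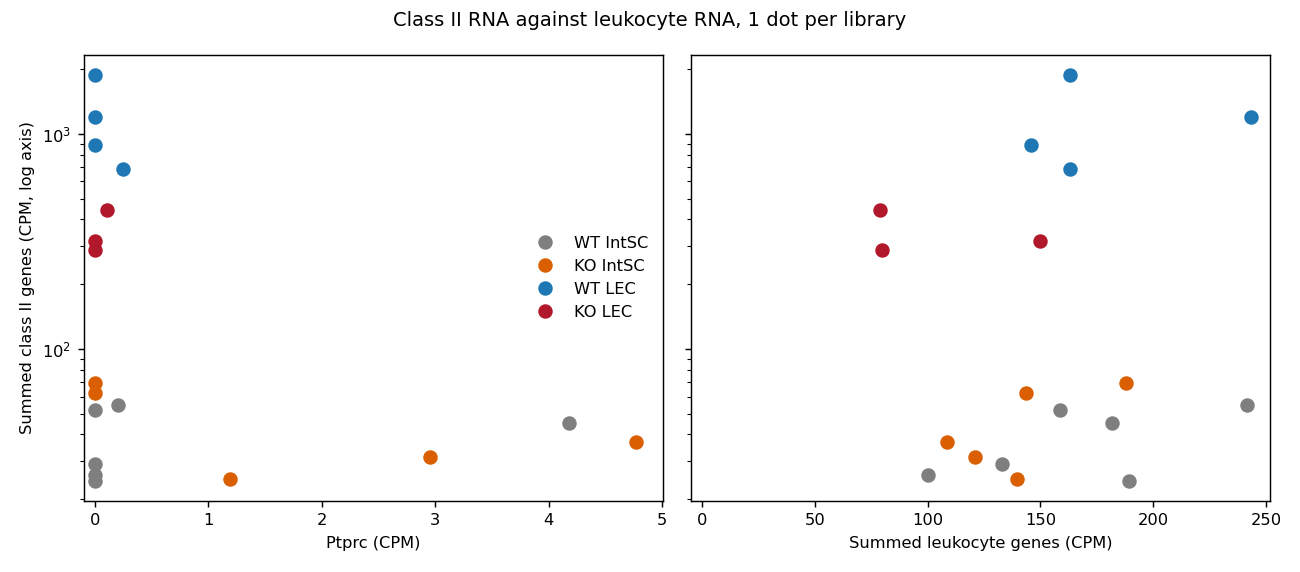
Summed CPM of the 6 class II genes (log axis) against Ptprc CPM (left, linear axis) and against the summed CPM of 69 leukocyte genes (right, linear axis), 1 dot per library. The 7 LEC libraries stood at the top with Ptprc at or near 0, and the libraries with the most Ptprc, all IntSCs, stood at the bottom.

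In KO mice the chain genes were again higher in LECs, by 2.59 to 3.30 on the log2 scale. H2-Aa was at 45.9, 119 and 81.9 CPM in KO LECs 1 to 3 and at 28.1, 1.74, 6.42, 2.44 and 0.902 CPM in KO IntSCs 1 to 5 (log2 fold change 3.30 ± 0.98, SE, adjusted p = 0.0326 by edgeR). H2-Ab1 was at 96.7, 176 and 93.8 CPM against 15.1, 8.45, 9.64, 29.8 and 15.7 CPM (2.88 ± 0.46, SE, adjusted p = 0.00133 by edgeR). H2-Eb1 was at 89.5, 101 and 126 CPM against 24.5, 18.3, 7.26, 13.9 and 19.2 CPM (2.59 ± 0.42, SE, adjusted p = 0.00150 by edgeR). For these 3 genes every LEC library lay above every IntSC library, as for 12.1% of all genes, and they were the 3 called of the 5 members tested, against 9.11% of 12758 genes called higher.

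Cd74 was at 57.0, 38.2 and 14.6 CPM in KO LECs and at 1.70, 2.82, 1.55, 14.9 and 0.902 CPM in KO IntSCs. The lowest KO LEC library, number 3, overlapped with KO IntSC 4, and the difference of 3.01 ± 1.02 (SE, adjusted p = 0.0526 by edgeR) did not pass the test. It passed without KO IntSC 4 (4.30, adjusted p = 0.00876) and without KO LEC 3 (3.40, adjusted p = 0.0355). The call of H2-Aa was lost without KO IntSC 2, 3, 4 or 5 (edgeR adjusted p = 0.0643, 0.0718, 0.0711 and 0.0508) and without KO LEC 2 or 3 (0.0793 and 0.0505). With the replicate number as a block, a pairing that the data did not bear out, H2-Ab1 alone stayed called (adjusted p of H2-Aa 0.197 and of H2-Eb1 0.0721).

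Between the genotypes, the 5 class II genes tested stood lower in KO than in WT LECs but did not pass the threshold. For H2-DMa, with no read in KO LECs, the direction was fixed by the filter. Ciita, below the filter, had 72 reads in KO LECs and 31 in WT LECs (2.63 and 0.953 CPM on average), nearly all in 1 library of each. H2-Aa averaged 82.2 CPM in KO and 272 CPM in WT, and all 3 KO libraries lay below all 4 WT libraries (log2 fold change -1.72 ± 0.41, SE, adjusted p = 0.200 by edgeR). H2-Ab1 averaged 122 CPM in KO and 355 CPM in WT, also without overlap (-1.53 ± 0.36, SE, adjusted p = 0.196 by edgeR). H2-Eb1 averaged 105 CPM in KO and 433 CPM in WT, again without overlap (-2.02 ± 0.40, SE, adjusted p = 0.0993 by edgeR). Cd74 averaged 36.6 CPM in KO and 85.1 CPM in WT. The Cd74 values overlapped, since KO LEC 1 at 57.0 CPM lay above WT LEC 2 at 45.0 CPM (-1.20 ± 0.58, SE, adjusted p = 0.676 by edgeR).

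Of the 5 members tested in LECs, none passed the adjusted threshold by edgeR, which 0.0658% of the 10639 genes did, and 4 had an unadjusted p under 0.05 on the lower side, against 5.01% of all genes. The 3 chain genes without overlap compare with 5.8% of all genes that had every KO library below every WT library. The fourth was H2-DMa (edgeR adjusted p = 0.484), whose WT value rested on WT LEC 4. With no read in KO LECs it passed the filter through WT LECs alone and could only come out lower. Its place in these counts is therefore not a result. The result depended on the procedure: DESeq2 called 4 members (H2-Aa, H2-Ab1, H2-Eb1 and H2-DMa, adjusted p from 3.12e-04 to 0.00957), a fit over all 4 groups called H2-Ab1 and H2-Eb1 (0.0466 and 0.00437), and limma-voom called H2-Eb1 (0.0414). Without WT LEC 1, which had raised stromal markers, the log2 fold changes of H2-Aa, H2-Ab1 and H2-Eb1 were -1.64, -1.53 and -2.01 (edgeR adjusted p = 0.453, 0.436 and 0.277). No member was called with any of the 7 LEC libraries left out or with the replicate block. In bulk RNA, fewer cells of a type and less RNA per cell cannot be told apart.

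In IntSCs no difference between the genotypes was detected. The 4 members tested had log2 fold changes of -0.06 ± 0.97 for H2-Aa, 0.22 ± 0.50 for H2-Ab1, 0.26 ± 0.44 for H2-Eb1 and 1.01 ± 1.34 for Cd74 (SE, adjusted p from 0.921 to 0.995 by edgeR). All 4 overlapped between KO and WT, none had an unadjusted p under 0.05, and neither DESeq2 nor limma-voom called any, where 1.47% of 12421 genes were called. The errors of H2-Aa and Cd74 are wide. Both varied widely among KO IntSCs, H2-Aa between 0.902 CPM in library 5 and 28.1 CPM in library 1, and Cd74 between 0.902 CPM in library 5 and 14.9 CPM in library 4.

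The test of the difference between these genotype effects, LECs minus IntSCs, was passed by H2-Eb1, at -2.37 ± 0.50 on the log2 scale (SE, adjusted p = 0.0142 by edgeR), 1 of 7 members tested. Of 14015 genes, 1.42% were called with the effect lower in LECs. H2-Ab1 was at -1.82 ± 0.56 (SE, adjusted p = 0.10 by edgeR), and H2-Aa and Cd74 were at -1.73 ± 1.36 and -2.26 ± 1.46 (SE, adjusted p = 0.651 and 0.518 by edgeR), so that a difference was shown for H2-Eb1 alone. The call of H2-Eb1 held with each of the 18 libraries left out and was lost with limma-voom (adjusted p = 0.373) and with the replicate block (adjusted p = 0.411).

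**Figure D3:**
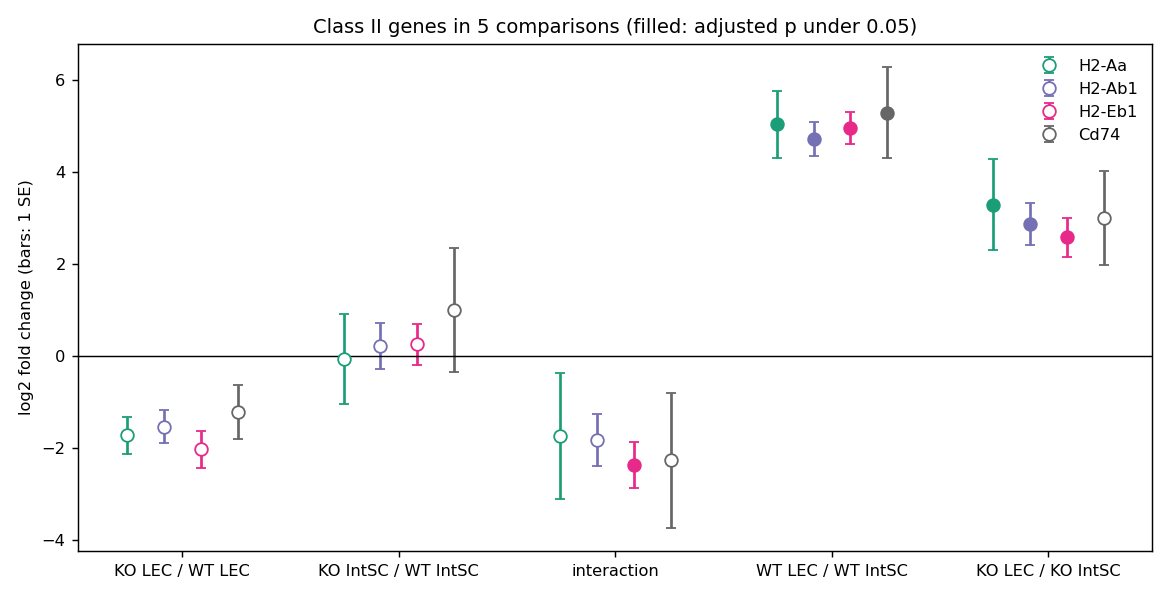
Log2 fold changes of H2-Aa, H2-Ab1, H2-Eb1 and Cd74 in 5 comparisons, with bars of 1 SE and filled dots where the edgeR adjusted p was under 0.05. The first-named group is over the second, and the interaction is the KO effect in LECs minus that in IntSCs. KO LECs lay at -1.20 to -2.02 against WT LECs, and KO IntSCs at -0.06 to 1.01 against WT IntSCs.

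Other RNA also differed between the LEC groups, and its part in the class II difference was not tested. Jchain, the joining chain of secreted antibodies made by plasma cells, was at 54.0, 15.4, 11.5 and 18.8 CPM in WT LECs and at 0.427, 1.53 and 2.72 CPM in KO LECs, without overlap (edgeR adjusted p = 0.524, DESeq2 0.00829, all 4 groups in 1 fit 0.00218). The summed B and plasma cell list was 18.9 to 62.7 CPM in WT LECs and 0.570 to 4.48 CPM in KO LECs, with Cd79a at 0 in all 7. Apoa1, an apolipoprotein of absorptive epithelial cells, was at 61.1, 102, 240 and 46.7 CPM in WT LECs and at 4.70, 17.8 and 29.2 CPM in KO LECs (edgeR adjusted p = 0.282, DESeq2 0.0137). The whole epithelial list overlapped, at 69.3 to 277 CPM in WT and 35.2 to 187 CPM in KO. The summed macrophage and dendritic cell list was 49.1 to 111 CPM in WT and 6.41 to 66.9 CPM in KO LECs, and the pan-leukocyte list 4.57 to 36.2 and 0.109 to 33.2 CPM, both overlapping. Clec9a had no read in the 3 KO LECs (DESeq2 adjusted p = 0.0386, below the filter of edgeR). The T cell list was at 46.8 to 62.8 CPM in KO LECs, within the WT range. The stromal sum was lower in every KO library (340.2 to 605 CPM) than in every WT library (659 to 2189 CPM), and Col3a1, a fibrillar collagen of stromal cells, was called lower with DESeq2 (adjusted p = 1.24e-04) but not by edgeR (0.0879). WT LEC 4 had the highest class II sum, 1878 CPM, with the lowest B and plasma cell and epithelial sums of the WT LECs. WT LEC 1, the library with raised stromal markers, had the second highest class II sum at 1191 CPM. The interaction was also called for Jchain (-3.75, edgeR adjusted p = 0.0174), and not with limma-voom (0.168) or with the replicate block (0.371).

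**Figure D4:**
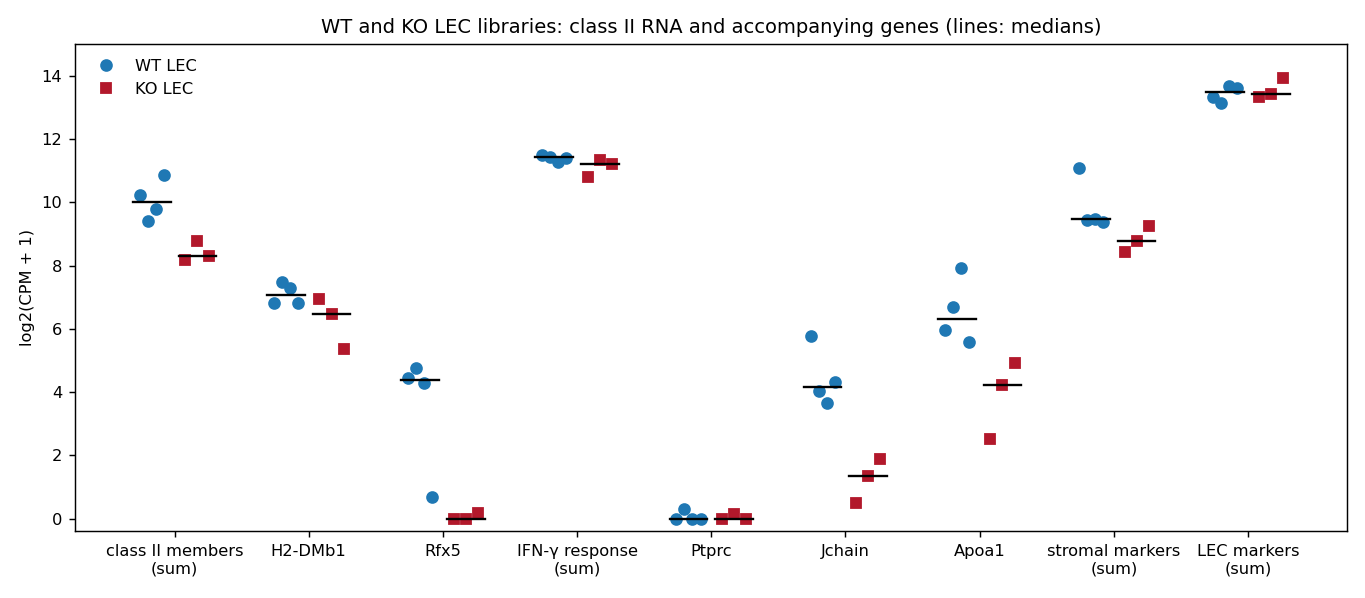
The 4 WT and 3 KO LEC libraries for the summed class II genes, H2-DMb1, Rfx5, the summed interferon-γ response list, Ptprc, Jchain, Apoa1 and the summed stromal and LEC markers, on a log2(CPM + 1) axis with lines at the medians. The class II sum, Rfx5, Jchain, Apoa1 and the stromal sum were lower in every KO library than in every WT library, whereas Ptprc was at or next to 0 in both groups and the LEC markers overlapped.

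Of 19 further genes of the class II pathway, 12 passed the filter. H2-DMb1, which encodes the beta chain of H2-DM, was higher in LECs of both genotypes. It was at 113, 179, 154 and 113 CPM in WT LECs and at 4.24 to 46.6 CPM in WT IntSCs (log2 fold change 2.20 ± 0.47, SE, adjusted p = 0.00295 by edgeR). In KO LECs it was at 121, 87.9 and 39.8 CPM against 13.3, 17.2, 13.8, 27.3 and 10.96 CPM in KO IntSCs (2.26 ± 0.48, SE, adjusted p = 0.00652 by edgeR, with the replicate block 0.125). Its KO and WT LEC values overlapped, and the difference of -0.75 ± 0.42 did not pass (SE, adjusted p = 0.776 by edgeR). The median log2 fold change of the 12 pathway genes was 0.46 between WT LECs and WT IntSCs, beside -0.04 over all genes, and that of the 5 class II members tested was 4.96. Ctsl, a lysosomal protease that trims the invariant chain in some cells, averaged 256 to 351 CPM over the 4 groups and did not pass the test in any comparison. The genes of H2-O, an inhibitor of H2-DM in B cells, were at 0 or 1 read in all LECs, and Cd80 and Cd86, the costimulatory ligands of professional antigen presenting cells, had no read in any LEC library.

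Rfx5, the subunit of the RFX complex that binds the X box, had next to no reads in KO LECs. It was at 21.0, 26.1, 18.6 and 0.596 CPM in WT LECs, at 8.66 to 42.9 CPM in WT IntSCs and at 11.6 to 18.4 CPM in KO IntSCs. In KO LECs it had 0, 0 and 1 read (lower than in KO IntSCs, edgeR adjusted p = 0.00380, with the replicate block 0.118), and the chain genes were higher in the same comparison. Rfx5 passed the filter there through KO IntSCs alone and could only come out lower, so its direction is not a result. WT LECs and WT IntSCs overlapped in Rfx5 (edgeR adjusted p = 0.596). The interaction was called for Rfx5 (edgeR adjusted p = 0.0128, lost with the replicate block at 0.470 and with limma-voom at 0.0747), whereas KO against WT LECs was not (edgeR adjusted p = 0.410), although DESeq2 called it (adjusted p = 7.88e-04). WT LEC 4, with 6 Rfx5 reads, had the highest H2-Aa, H2-Ab1, H2-Eb1 and Cd74 of all libraries. Rfxap and Rfxank, the other RFX subunits, and Nfyb of NF-Y overlapped between WT and KO LECs.

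All 18 genes of the interferon-γ response list were tested in every comparison. Genes higher in WT LECs than in WT IntSCs included the guanylate binding proteins Gbp2 and Gbp4 and the immunoproteasome subunits Psmb8 and Psmb9. The chemokine Cxcl9 was lower (edgeR adjusted p = 0.0279), a call lost with the replicate block (0.119), with all 4 groups in 1 fit (0.0684) and without WT IntSC 2 or 5 or WT LEC 2 (0.0675, 0.0596 and 0.0526). Gbp2 was at 147, 176, 214 and 232 CPM in WT LECs and 19.9 to 34.9 CPM in WT IntSCs (log2 fold change 2.81 ± 0.26, SE, adjusted p = 1.44e-06 by edgeR). In KO, Gbp2, Gbp4, Psmb8, Psmb9 and the kinase gene Jak1 were higher in LECs and the kinase gene Jak2 was lower, and the interaction was called for Jak2 (edgeR adjusted p = 0.0314). With the replicate block, of these genes only Gbp2 stayed called in KO (Gbp4 0.277, Psmb8 0.0560, Psmb9 0.108, Jak1 0.254, Jak2 0.0868, and 0.470 for the interaction of Jak2). Gbp4 (0.0496) was also lost under most other alternatives. Jak1 was lost without KO IntSC 1, 3, 4 or 5 or KO LEC 2 or 3 (0.0568 to 0.121), and the interaction of Jak2 without any 1 of 8 libraries (0.0512 to 0.0629). In KO LECs Jak2 had 6 reads, all in 1 library. Between KO LECs and KO IntSCs it passed the filter through IntSCs alone and could only come out lower. Irf1, an interferon regulatory factor, averaged 414 to 587 CPM over the 4 groups and was not called by edgeR. The list summed to 2460 to 2871 CPM in WT LECs and 1567 to 1871 CPM in WT IntSCs. Between WT and KO LECs none of the 18 was called by edgeR, and Jak2 was lower in KO with DESeq2 (adjusted p = 0.0455) and with all 4 groups in 1 fit (0.0133). Of the 18, 5 had a positive log2 fold change. Gbp2 was at 164 to 224 CPM in the 3 KO LECs, within the WT range. Psmb9 was at 109 to 179 CPM in KO LECs and at 184 to 243 CPM in WT LECs, without overlap. Iigp1, an interferon-inducible GTPase, averaged 213 CPM in KO and 382 CPM in WT, where the highest KO library, at 289.3 CPM, was next to the lowest WT library, at 289.95 CPM (-0.83 ± 0.32, SE, adjusted p = 0.518 by edgeR). The median log2 fold change of the list between KO and WT LECs was -0.17, beside -0.03 for all genes and -1.72 for the class II members tested.

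The chain genes H2-Aa, H2-Ab1 and H2-Eb1 went together in LECs more than in IntSCs, given here as a description. In the 7 LEC libraries, centred on the genotype means, r was 0.82 between H2-Aa and H2-Ab1, 0.53 between H2-Aa and H2-Eb1, 0.65 between H2-Ab1 and H2-Eb1 and 0.64 between H2-Ab1 and Cd74. In the 11 IntSC libraries the same values were 0.16, -0.01, 0.22 and 0.70, at levels where H2-Aa was down to 1 read in a library. Other pairs of class II members also had the higher r in IntSCs, such as H2-Aa with Cd74 (0.22 in LECs, 0.33 in IntSCs). Among genes with a mean of at least 5 CPM in LECs (9918), those most like the class II sum over the 7 libraries were Uqcr10, Wdr1, Ptp4a3, Emc1, Lmf2, Cd82, Tapbp, Ube2r2, Cog2 and Tnfaip1 (r from 0.97 to 0.98). Tapbp encodes tapasin, of class I peptide loading. The 100 genes most like the class II sum in LECs held 0 of the 10 class II pathway genes ranked. They also held 0 of the 18 interferon-γ response genes and 0 of the 9 leukocyte list genes ranked. In the 11 IntSC libraries (10542 genes) they were Gcc2, Clec3b, 2810004N23Rik, Psenen, Snrpd3, Plekhh2, Arhgap32, Bcl3, Rrbp1 and Nlgn2 (r from 0.84 to 0.91). The genes most like Ptprc in IntSCs were Celf1, Snapc3, Ssbp4, Prg4, Tbc1d15, Armcx4, Grsf1, Gla, Exosc8 and Camsap1 (r from 0.83 to 0.94 over 11 libraries). With so few libraries some of the many genes ranked reach such values.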

How the data were processed

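Sorted cells were profiled with QuantSeq, which counts reads at the 3′ end of transcripts. The authors deposited raw counts per gene symbol for each library, 23282 rows of whole numbers, not normalised. The study's methods name TopHat and Cufflinks, and the submitters' processing notes name Bowtie2, edgeR and build mm10. The counting program and annotation are not given in the sources used here. Symbols on more than 1 row (35) were summed.

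Tests used edgeR 4.0.16 under R 4.3.3 with TMM factors (filterByExpr, robust quasi-likelihood fit, Benjamini-Hochberg adjustment over all genes tested, threshold 0.05), with only the 2 groups compared in a fit and all 4 for the interaction. CPM used TMM factors over 18 libraries. Correlations used log2(CPM + 1) and exact permutation within genotype, adjusted over 24 pairs. The procedure was tested on simulated counts. Groups and replicate numbers came from sample titles. The study reports 5 to 6 mice per group from 3 independent experiments for the IntSC RNA sequencing. For the LECs it reports 3 to 4 mice per group from 2 experiments. These numbers match those of the libraries, but sample titles link no library to a mouse or an experiment. The p-values therefore measure the spread between samples, which may be partly technical, and differences between experiments were not modelled. No library pair within a group agreed within sampling noise. Same-numbered libraries did not deviate together (r from -0.06 to 0.06), so numbers were not treated as pairs. The genes and lists were chosen with earlier results of these data known. All 10 members are named, up to 5 called genes of the pathway and interferon-γ lists per direction and comparison, and the 10 genes most like class II or Ptprc. The rule also took the 3 genes with the highest mean of each marker list, of which those of leukocyte lists in WT LECs are given, and of other lists only some. Genes given for other reasons (Lats1, Lats2, H2-Ea-ps, Rfxap, Rfxank, H2-Oa, H2-Ob, Cd80, Cd86, Iigp1, Clec9a, Fcgr1, and Jchain, Apoa1, Rfx5 and Nfyb in LECs) were chosen after their values were seen. Alternatives were RLE factors, DESeq2 1.42.0, limma-voom 3.58.1, other filters, the replicate block, all 4 groups in 1 fit, no Rn45s and each library left out. A gene of the interferon-γ response list is not reported here by name.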

Additional observations from a re-analysis of the deposited data

Results flagged for a closer look

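H2-Eb1 is listed for its interaction, with a genotype effect in LECs lower than that in IntSCs by -2.37 on the log2 scale (edgeR adjusted p = 0.0142), with all 3 KO LECs below all 4 WT LECs and overlap in IntSCs.

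The other values are of libraries that stand apart from the rest of their group. The test for this was run on 44 sets of 4 to 6 libraries and picked out 17 values, where chance gives about 2.2, or about 1 in 20. Genes absent from most libraries of a group meet the test easily. Among class II genes, H2-Aa was at 28.1 CPM in KO IntSC 1 (the others 0.902 to 6.42), Cd74 at 14.9 CPM in KO IntSC 4 (the others 0.902 to 2.82) and Ciita at 3.81 CPM in WT LEC 2 (the others 0). H2-DMa was at 5.23 CPM in WT IntSC 1, 1.07 CPM in KO IntSC 4 and 52.6 CPM in WT LEC 4.

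Among leukocyte genes, Ptprc was at 4.18 CPM in WT IntSC 3 and 0.246 CPM (2 reads) in WT LEC 2. Itgax was at 16.5 CPM in WT IntSC 2 and 17.1 CPM in KO IntSC 4, Cd3e at 1.34 CPM in WT IntSC 1 and Cd79a at 1.24 CPM in WT IntSC 6. Their sum stood apart in WT IntSC 2 (16.5 CPM) and WT LEC 2 (0.246 CPM). These genes did not stand apart in the same library, apart from H2-DMa, Cd74 and Itgax in KO IntSC 4, H2-DMa and Cd3e in WT IntSC 1, and Ciita and Ptprc in WT LEC 2.

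The summed epithelial list was at 151 CPM in WT IntSC 6 (the others 20.4 to 42.3) and 192 CPM in KO IntSC 5 (the others 73.1 to 101), and the summed stromal list at 2189 CPM in WT LEC 1 (the others 659 to 716). In these libraries the class II sum was 55.0, 36.9 and 1191 CPM, within the range of their groups in KO IntSC 5 and WT LEC 1 and the highest of the WT IntSCs in WT IntSC 6.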

How the results depend on the processing

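Between WT LECs and WT IntSCs and between genotypes in IntSCs, the number of members called was the same under every alternative. In KO against WT LECs no member was called by edgeR, 4 with DESeq2, 3 with no filter beyond 1 read, 2 with all 4 groups in 1 fit, and 1 each with limma-voom and with a mean count of at least 10. Leaving out a library gave 0 throughout. The number of genes called in that comparison was 7, against 418 with DESeq2, 538 with 4 groups in 1 fit, 32 with no filter, 20 with the mean count filter, 18 with limma-voom and 0 to 16 without a library. Between KO LECs and KO IntSCs, 3 members were called, 1 with the replicate block and 5 with DESeq2, which added Cd74 and, lower in LECs, the leukocyte gene Itgax (adjusted p = 0.0477), and all genes called went from 3302 to 895 with the block. The interaction called 1 member, and 0 with limma-voom and with the replicate block, where all genes called went from 238 to 16 (1130 with DESeq2, 140 with limma-voom, up to 461 without KO LEC 2). In IntSCs 183 genes were called, 458 with DESeq2, 122 with the replicate block, 99 at the lowest without a library and 27 with 4 groups in 1 fit. Between WT LECs and WT IntSCs the 2763 genes called became 1596 with the replicate block. The cause of these changes was not tested. Same-numbered libraries did not deviate together, and the block changed no other call of a member.

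Signs turned for differences near 0. H2-Aa between KO and WT IntSCs went from -0.06 to 0.053 with the replicate block and ranged from -1.51 to 0.24 with a library left out, H2-Ab1 from -0.13 (without KO IntSC 4) to 0.53, Cd74 from -0.30 (without KO IntSC 4) to 1.46, and the interaction of Ptprc from -5.61 to 0.42 (without WT LEC 2). RLE factors moved the median of all genes by 0.11 in the interaction and turned no class II member. The count of correlated pairs stayed 0 under each alternative, and summed levels moved by less than 1 SD without TMM factors or Rn45s. In LECs the exact test within genotype could give no other count, with Ptprc read in so few libraries. Depth limits Ptprc, Cd3e, Cd79a, Itgax, Ciita and H2-DMa, at 0 reads in many libraries.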
